A study of Mus musculus with 7 samples.

Results

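The 10 genes described here lie in a stretch of 644 kb on mouse chromosome 5 that holds neutrophil-attracting CXC chemokines next to ligands of the epidermal growth factor (EGF) family. They are the chemokine genes Cxcl5, Ppbp, Pf4, Cxcl3, Cxcl1 and Cxcl2 and the EGF-family genes Epgn, Ereg, Areg and Btc, and they are 10 of 46603 gene rows in the count tables. The stretch was chosen because its fold changes between cells with a PAX8-NFE2L2 fusion and cells with an empty vector formed the highest run, so every value of these genes in that comparison describes the choice and supports nothing, and no p-value is given for a member. The 6 chemokine genes fill the start of the stretch and the 4 EGF-family genes its end.

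The cells were TRAMP-C1, an established mouse prostate tumour line derived from the TRAMP strain (strain label C57BL/6-TgN(TRAMP)8247Ng), labelled prostate epithelial. The fusion group consisted of 3 libraries of cells given a PAX8-NFE2L2 fusion gene in the lentiviral vector Lv229, and the empty vector group of 3 libraries of cells given the matching vector without the gene. A further library, labelled WT, names no vector and is the 1 sample of its kind. All were described as the same line harvested after 12 h with virus and a further 24 h in fresh medium, a text that the WT library shares, so whether it met a virus is unknown here. The labels do not say whether the libraries of a group were separate cultures. The p-values therefore reflect the spread among these libraries alone, and that spread may be technical. PAX8 is a developmental transcription factor best known from thyroid and kidney, and NFE2L2 encodes NRF2, the activator of antioxidant genes.

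CXC chemokines are small secreted proteins that bind heparan sulfate and G protein-coupled receptors. Cxcl1, Cxcl2, Cxcl3, Cxcl5 and processed Ppbp act on CXCR2 and draw neutrophils, whereas Pf4 (platelet factor 4) is stored in platelet granules. Many of their genes are switched on by NF-kB after interleukin-1, tumour necrosis factor or lipopolysaccharide, and AU-rich elements make their mRNAs short-lived. The EGF-family ligands encoded in this stretch are made as membrane-anchored precursors and released by ADAM proteases such as ADAM17. They bind EGFR or ERBB4 on the same or a neighbouring cell.

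The sequence just before the start is shown for the chemokine genes with a fitted fold change above 1 on the log2 scale, and for Areg as an EGF-family gene beside them. RefSeq promoters of GRCm38.p6 were matched for 8 of the 10 genes, Cxcl5 and Ereg having no entry. The 250 bases before the RefSeq start are printed below in transcript direction, and capitals mark matches to the motifs described after them.
Cxcl1 (chr5:90890995-90891244, plus strand): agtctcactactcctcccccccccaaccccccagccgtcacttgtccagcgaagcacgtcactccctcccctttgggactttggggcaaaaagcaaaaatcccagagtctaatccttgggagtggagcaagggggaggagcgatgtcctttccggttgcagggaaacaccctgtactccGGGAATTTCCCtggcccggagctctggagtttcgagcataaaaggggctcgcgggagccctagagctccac
Cxcl2 (chr5:90903649-90903898, plus strand): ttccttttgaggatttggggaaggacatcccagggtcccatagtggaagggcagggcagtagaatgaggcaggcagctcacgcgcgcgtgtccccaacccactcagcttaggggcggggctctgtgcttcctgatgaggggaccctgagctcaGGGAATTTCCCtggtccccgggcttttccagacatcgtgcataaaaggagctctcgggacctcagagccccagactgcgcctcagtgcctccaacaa
Cxcl3 (chr5:90785851-90786100, plus strand): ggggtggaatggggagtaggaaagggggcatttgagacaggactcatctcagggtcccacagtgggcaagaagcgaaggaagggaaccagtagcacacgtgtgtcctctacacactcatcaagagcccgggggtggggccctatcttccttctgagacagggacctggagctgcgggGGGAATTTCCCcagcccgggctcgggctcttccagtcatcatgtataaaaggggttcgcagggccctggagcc
Ppbp (chr5:90768268-90768517, plus strand): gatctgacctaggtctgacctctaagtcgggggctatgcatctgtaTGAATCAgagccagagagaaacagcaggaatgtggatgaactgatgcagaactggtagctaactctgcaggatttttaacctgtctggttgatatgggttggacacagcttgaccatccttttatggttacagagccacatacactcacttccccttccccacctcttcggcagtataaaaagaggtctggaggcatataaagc
Areg (chr5:91139349-91139598, plus strand): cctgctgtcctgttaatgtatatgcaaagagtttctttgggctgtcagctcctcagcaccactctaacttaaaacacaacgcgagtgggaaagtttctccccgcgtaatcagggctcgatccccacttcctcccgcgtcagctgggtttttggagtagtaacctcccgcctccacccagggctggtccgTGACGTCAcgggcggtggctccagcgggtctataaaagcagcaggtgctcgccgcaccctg

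The consensus motif of NF-kB matched in 3 of the 8 promoters, those of Cxcl1, Cxcl2 and Cxcl3, against 2382 of 32851 promoters of the same length (7.25%). Each of the 3 held 1 such place, and its letters were the same, GGGAATTTCCC, in which the motif matches on both strands in overlapping positions. These 11 letters, read from the Cxcl1 promoter, occurred in 14 of the 32851 promoters (0.0426%), counted on both strands and including these 3. As the letters were taken from a member, that share is a description and no test. Numbering the base before the start as -1, the place lay at -71 to -61 in Cxcl1, at -97 to -87 in Cxcl2 and at -73 to -63 in Cxcl3.

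The 5 remaining promoters had no match to the NF-kB motif in this window. Ppbp held 1 match to the AP-1 motif TGANTCA at -204 to -198, and 6.75% of all promoters held this motif. The capitals in the Areg sequence are a match to the cyclic AMP response element TGACGTCA at -61 to -54, found in 1.55% of all promoters. Pf4 held 1 match to the C/EBP motif TTGCNNAA, present in 9.56% of promoters. The antioxidant response element, to which NRF2 binds, was searched as TGACNNNGC and matched in 0 of the 8 windows, against 10.2% of all promoters. Both strands were searched for each motif, and TGACGTCA and TGANTCA read the same on both. These matches are descriptions of letters, and no binding was measured.

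Cxcl2 and Cxcl3 are near copies of each other, which bears on how far their counts can be told apart. Their coding sequences were identical at 272 of 303 aligned bases (89.8%). The first 98 coding bases, taken from the GENCODE M21 transcripts and the same in both genes, read as follows.
Cxcl2 and Cxcl3, coding bases 1 to 98: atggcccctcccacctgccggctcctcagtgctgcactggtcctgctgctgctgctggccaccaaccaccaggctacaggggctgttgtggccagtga
Of the 50-base windows of Cxcl2 transcripts, 5.84% also occurred in Cxcl3, and 4.29% of those of Cxcl3 occurred in another gene. Reads from such windows align to more than 1 place and were not counted under either gene, so the levels of Cxcl2 and Cxcl3 are uncertain by that much. Ereg shared 141 exon bases with Gm19610, a gene on the other strand, and because the strand setting of the counting is not given, reads there cannot be told apart. Cxcl5 shared 0.693% of its windows with other genes, and the other 6 genes shared none.

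Reads counted under genes came to between 26368182 and 59597170 per library, and 21216 to 22697 genes were detected. Levels are given in CPM, read counts scaled to a common library size with TMM factors. Where a library holds 0 counts of a gene, 3 counts set the upper limit on its level, 0.05034 to 0.1138 CPM depending on the library, which covers counting error only. Pax8, part of the construct, was at 0.0334, 0.0358 and 0.217 CPM with empty vector and at 6.40, 8.53 and 5.57 CPM with the fusion (log2 fold change 6.25, adjusted p = 0.00327, edgeR quasi-likelihood test with Benjamini-Hochberg adjustment), and Nfe2l2 was at 119 ± 7.16 and 136 ± 11.9 CPM (SD, n = 3 each; adjusted p = 0.885). Both are levels of reads assigned to the mouse genes, so the level of the construct itself cannot be read from them. Epithelial markers of the labelled cell type were uneven: with empty vector Epcam, Cdh1 and Krt8 were at 0.240, 0.750 and 1.21 CPM on average, whereas Krt19 was at 58.1 ± 18.6 and Trp63 at 9.82 ± 3.25 CPM (SD, n = 3 each). Col1a1 and Vim, genes typical of fibroblasts, were at 3220 and 3000 CPM. Replicate 3 of each group came from other sequencing lanes than replicates 1 and 2, and held more reads with several alignments (45.32% and 44.78%, against 36.1% to 38.89% elsewhere). In bulk RNA, fewer cells of a type and less RNA per cell cannot be told apart.

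Among the chemokines, Cxcl1, Cxcl5, Ppbp and Cxcl2 were higher in every fusion library than in any empty vector library. Over the 6 genes summed, the level was 51.0, 69.4 and 58.0 CPM with empty vector and 300, 257 and 187 CPM with the fusion, so the mean level was 4.17 times as high. The 4 EGF-family genes summed to 95.8, 83.2 and 136 CPM with empty vector and to 70.1, 49.9 and 124 CPM with the fusion, ranges that overlapped. Of the 10 genes, 9 passed the filter on low counts, and 3 of them (Cxcl1, Cxcl5 and Ppbp) were called higher and 0 lower at an adjusted p of 0.05, where 1.69% of 16731 tested genes were called higher and 0.353% lower. The replicate number was also set as a block, a pairing inferred from these same data and named by no label. With it 4 were called higher, Cxcl2 being the fourth, where 7.63% of all genes were. DESeq2 also called these 4 higher and 0 lower, where it called 3.72% of 16724 genes higher and 1.79% lower. Fusion libraries stood above all empty vector libraries in 4 of the 9, against 9.15% of all tested genes, and below them in 0, against 6.66%. Because the genes were chosen on this contrast, nothing is read from these counts.

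**Figure D1:**
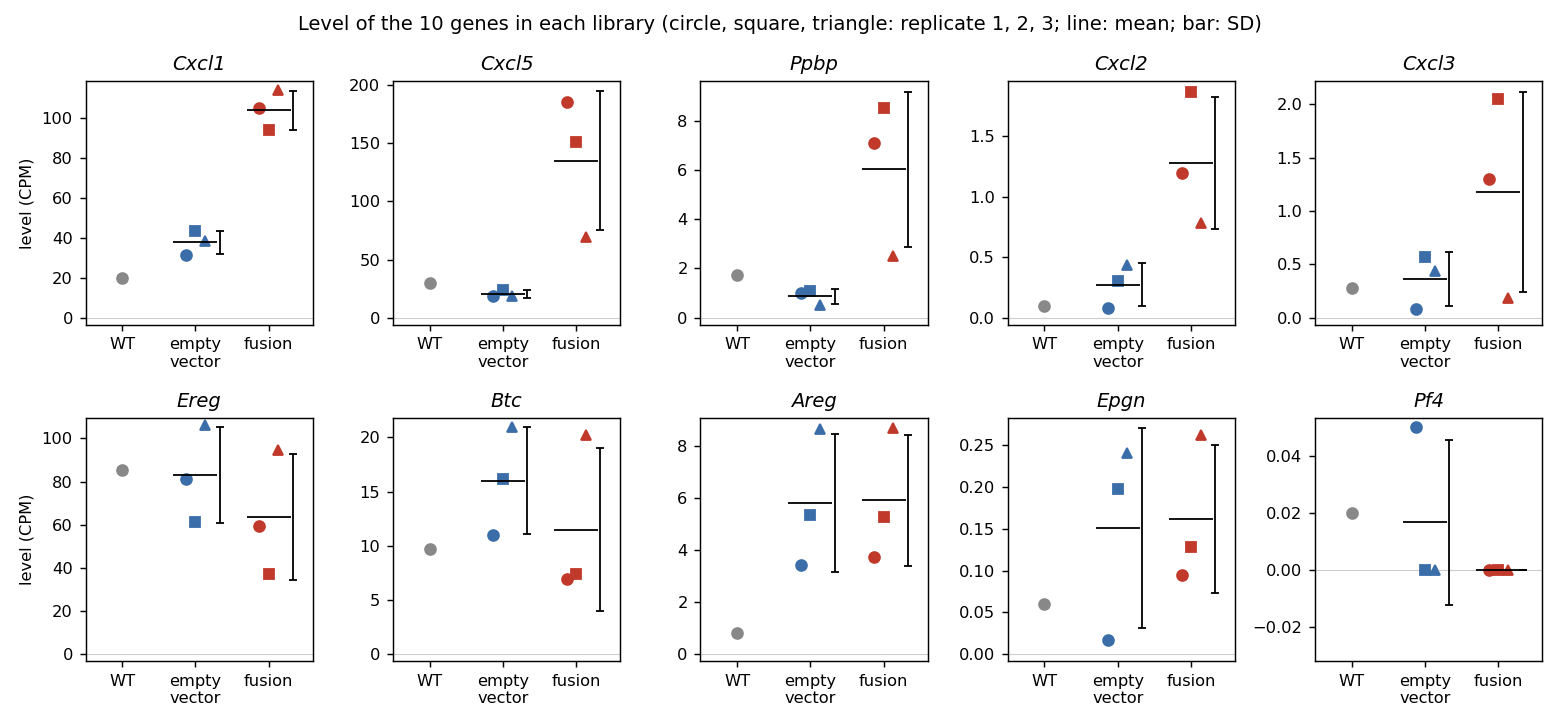
Level of each of the 10 genes in CPM (linear vertical axis, a different scale in each panel) in the WT library, the 3 empty vector libraries and the 3 fusion libraries; circles, squares and triangles are replicates 1, 2 and 3, lines are group means and bars SDs. Fusion points lie above all empty vector points for Cxcl1, Cxcl5, Ppbp and Cxcl2, while for Ereg, Btc, Areg and Epgn the triangles of both groups lie highest.

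Cxcl1 (KC, chr5:90891241-90893115 of GRCm38, plus strand), the main mouse neutrophil chemokine of many stromal and epithelial cells, was at 31.6, 43.3 and 38.3 CPM with empty vector and at 105, 94.1 and 114 CPM with the fusion. The 3 fusion libraries lay within a narrow range and well above the 3 empty vector libraries. The means were 37.7 ± 5.84 and 104 ± 9.93 CPM (SD, n = 3 each), 2.76-fold apart, and the fitted log2 fold change was 1.47 (SE 0.20). It was the steadiest of the chemokines: the fold within a replicate number was 3.32, 2.17 and 2.98, and leaving out libraries or changing the settings moved the fitted value only between 1.36 and 1.58.

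Cxcl5 (LIX, chr5:90759360-90761624, plus strand), an epithelial CXCR2 ligand, was at 18.2, 24.2 and 18.3 CPM with empty vector and at 186, 151 and 69.2 CPM with the fusion. Its fusion libraries were all higher but uneven, replicate 3 standing at less than the other two. Its group means were 20.2 ± 3.44 and 135 ± 59.8 CPM (SD, n = 3 each), with a fitted log2 fold change of 2.74 (SE 0.37) and 3.0 (SE 0.23) without replicate 3 of both groups. By replicate number the fold was 10.2, 6.22 and 3.77.

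Ppbp (pro-platelet basic protein, chr5:90768518-90770063, plus strand), whose cleaved product in platelets is a CXCR2 ligand, followed Cxcl5 at a far lower level. It was at 1.00, 1.07 and 0.529 CPM with empty vector and at 7.09, 8.53 and 2.51 CPM with the fusion. These values rest on 60, 60 and 22 reads with empty vector and on 372, 466 and 67 with the fusion. Here too the groups were apart and fusion replicate 3 was lowest. The fitted log2 fold change was 2.79 (SE 0.51), and it was 2.92 (SE 0.28) without replicate 3 of both groups.

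Cxcl2 (MIP-2, chr5:90903871-90905938, plus strand) and Cxcl3 (chr5:90786103-90789600, plus strand), the near copies shown above and both CXCR2 ligands, had low counts, at most 112 reads in any library. Cxcl2 had 5, 17 and 18 reads with empty vector and 63, 102 and 21 with the fusion, that is 0.0836, 0.304 and 0.433 CPM against 1.20, 1.87 and 0.786 CPM. Cxcl3 had 5, 32 and 18 reads with empty vector and 68, 112 and 5 with the fusion, or 0.0836, 0.573 and 0.433 CPM against 1.30, 2.05 and 0.187 CPM. Cxcl2 was higher in every fusion library, whereas Cxcl3 was lower in fusion replicate 3 than in empty vector replicates 2 and 3. The fitted log2 fold changes were 2.27 (SE 0.60) for Cxcl2 and 1.74 (SE 0.85) for Cxcl3. Without replicate 3 of both groups they were 2.99 (SE 0.64) and 2.36 (SE 0.81), and leaving out empty vector replicate 1 gave 1.81 for Cxcl2. For Cxcl3 leaving out fusion replicate 2 gave 1.09 (SE 0.91).

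Pf4 (chr5:90772435-90773383, plus strand) had 3, 0 and 0 reads with empty vector, 0 in each fusion library and 1 in the WT library. Its 0 reads among 134007677 in the fusion libraries allow a level of up to 0.0224 CPM. It lies directly beside Ppbp, with which it shares platelets as its main known source, and it was not fitted. Markers of platelets and megakaryocytes are given beside Ppbp for this reason. The summed level of the 9 measured of 10 listed markers was 39.0 to 47.6 CPM with empty vector and 26.4 to 54.7 CPM with the fusion, 0 of the 4 tested passed, Gp6 was at 0 in all libraries and Gp9 at 1 read at most. Itga2b made up much of that sum, with 25.0 ± 7.95 and 19.8 ± 7.11 CPM (SD, n = 3 each).

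The make-up of the chemokine signal differed between libraries. Cxcl1 held 62.0, 62.3 and 66.0% of the summed CPM of the 6 genes in the empty vector libraries, and Cxcl5 35.6, 34.9 and 31.6%. In fusion replicates 1 and 2 the order was turned over, with 61.9 and 58.6% for Cxcl5 and 34.9 and 36.6% for Cxcl1. Fusion replicate 3 kept the order of the empty vector libraries, at 37.1% for Cxcl5 and 61.0% for Cxcl1. The WT library, at 57.9% for Cxcl5, had the order of fusion replicates 1 and 2 at a sum of 52.1 CPM, within the empty vector range. Ppbp held between 0.913 and 3.32% of the sum in any library.

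**Figure D2:**
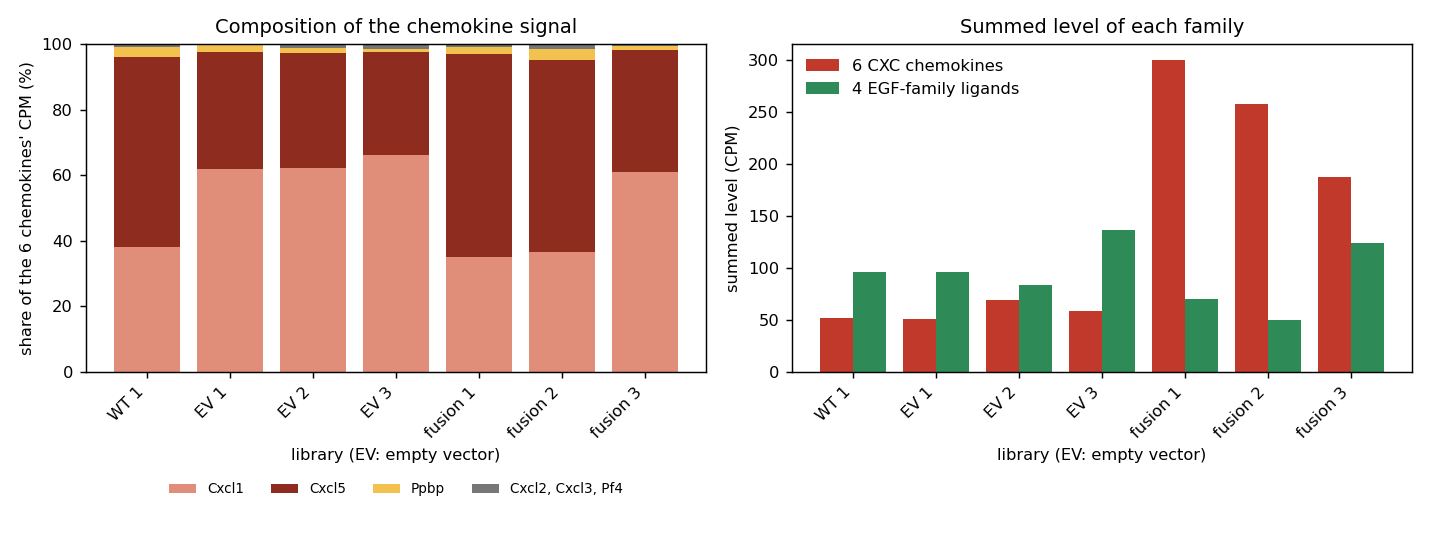
Left, the share (%) of the 6 chemokines' summed CPM held by Cxcl1, Cxcl5, Ppbp and the remaining 3 genes in each of the 7 libraries; right, the summed CPM of the 6 chemokines and of the 4 EGF-family ligands in the same libraries, with bars starting at 0. The chemokine sum is 187 to 300 CPM in the fusion libraries and 51.0 to 69.4 CPM with empty vector, and the 2 largest EGF-family sums are those of the libraries numbered 3.

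Ereg (epiregulin, chr5:91074622-91093646, plus strand), a ligand of EGFR and ERBB4, was the most abundant of the EGF-family genes. It stood at 81.4, 61.5 and 106 CPM with empty vector and at 59.3, 37.0 and 94.5 CPM with the fusion. The groups overlapped, and in each pair of the same number the fusion library was the lower, at 0.728, 0.602 and 0.889 of its partner. The fitted log2 fold change was -0.39 (SE 0.36), and -0.45 (SE 0.12) with the replicate block. It moved to -0.11 without fusion replicate 2, to -0.17 without empty vector replicate 3 and to -0.78 without fusion replicate 3.

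Btc (betacellulin, chr5:91357261-91402994, minus strand), which also binds EGFR and ERBB4 and stands at the far end of the stretch, had a lower level. It was at 11, 16.2 and 20.9 CPM with empty vector and at 6.94, 7.43 and 20.2 CPM with the fusion. Fusion replicates 1 and 2 were below every empty vector library, and fusion replicate 3 was as high as its partner. The fitted log2 fold change of -0.48 (SE 0.45) became -1.15 (SE 0.32) without fusion replicate 3 and -0.90 (SE 0.27) without replicate 3 of both groups. It shrank to -0.22 without fusion replicate 1, and to -0.24 without fusion replicate 2 or empty vector replicate 3.

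Areg (amphiregulin, chr5:91139599-91148432, plus strand), an EGFR ligand that is often induced together with Ereg, was at 3.43, 5.34 and 8.66 CPM with empty vector and at 3.73, 5.27 and 8.68 CPM with the fusion. The 2 groups were nearly alike number by number, with ratios of 1.09, 0.988 and 1.00. Their fitted log2 fold change was 0.02 (SE 0.43), or 0.04 (SE 0.15) with the replicate block. Leaving out single libraries moved it between -0.36 and 0.42, to either side of 0.

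Epgn (epigen, chr5:91027464-91035215, plus strand), a weak EGFR ligand of skin, had between 1 and 11 reads in any of the 7 libraries, so no difference was detectable at this depth. Its fitted log2 fold change was 0.05 (SE 0.82) and lay between -0.51 and 0.51 when libraries were left out. All 4 EGF-family genes were highest in replicate 3 within each group. The chemokines had no such order, since fusion replicate 3 was the lowest fusion library for Cxcl5, Ppbp, Cxcl2 and Cxcl3 and the highest for Cxcl1. Lanes and depth also set these libraries apart, and their part in this was not tested. Replicate 3 of the empty vector group came from lane 1 and that of the fusion group from lane 2, so the comparison within the shared lanes 5 and 6 is the one without replicate 3 of both groups. In it the fitted log2 fold change was 1.42 (SE 0.21) for Cxcl1, -0.55 (SE 0.29) for Ereg and 0.05 (SE 0.34) for Areg, Epgn was not fitted, and those of the other fitted members are given above.

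Levels can be compared between genes once divided by exon length. With empty vector, Cxcl1 and Ereg led at 20.1 ± 3.12 and 20.1 ± 5.43 CPM per kb (SD, n = 3 each), followed by Cxcl5 at 10.9 ± 1.84. Areg (4.78 ± 2.18) and Btc (3.54 ± 1.10) came next, then Ppbp at 0.802 ± 0.273 CPM per kb. The spreads of Areg and Btc overlapped, but Areg was the higher in each empty vector library. It was at 2.82, 4.39 and 7.13 CPM per kb there, and Btc at 2.43, 3.58 and 4.62. Cxcl2, Cxcl3, Epgn and Pf4 were at 0.132 CPM per kb or less, each within the spread of its neighbour. With the fusion, Cxcl5 (72.6 ± 32.1) and Cxcl1 (55.6 ± 5.29) led and did not differ beyond their spread, and Ereg followed at 15.4 ± 7.01 CPM per kb. From Ereg down through Ppbp (5.58 ± 2.91), Areg, Btc, Cxcl2 and Cxcl3 to Epgn, each mean ± SD overlapped that of the next gene. Within each fusion library, however, Ereg was above Ppbp (14.4, 8.97 and 22.9 against 6.54, 7.88 and 2.31). Areg was also above Btc, Btc above Cxcl2 and Cxcl2 above Cxcl3 in every fusion library. Ppbp and Areg, and Cxcl3 and Epgn, changed order in fusion replicate 3. In the 1 WT library the order was led by Ereg at 20.7, Cxcl5 at 16.2 and Cxcl1 at 10.5 CPM per kb.

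The WT library was compared with the empty vector libraries as values alone for these genes, because those libraries also served in the choice. Areg differed most: it stood at 0.802 CPM (40 reads) in WT and at 5.81 ± 2.65 CPM (SD, n = 3) with empty vector, 7.25-fold higher on average and higher in 3 of 3 libraries. Cxcl1, at 19.8 CPM in WT, and Btc, at 9.68 CPM, were also below all 3 empty vector libraries. Cxcl5 at 30.2 CPM and Ppbp at 1.72 CPM were above all 3. WT thus lay outside the empty vector range in 5 of the 9 fitted genes, 3 below and 2 above, where 21.6% of all tested genes had WT below and 22.7% had it above. Ereg, at 85.3 CPM in WT, lay within the range, as did Cxcl2 (0.10 CPM), Cxcl3 (0.281 CPM) and Epgn (0.0601 CPM). Over all genes edgeR called 0 between empty vector and WT (0% in either direction), with 746 of 16731 at an unadjusted p under 0.05, and DESeq2 called 71 of 16404. The single WT library is assumed in that fit to vary like the other groups.

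Genes with higher levels at the chemokine end of the stretch, where Pf4 had no fusion reads and Cxcl3 overlapped, also included some that are not members. Cxcl15 (lungkine, chr5:90794534-90803067, plus strand), a CXC chemokine known from lung that lies between Cxcl3 and Cxcl1, was at 11.7, 15.1 and 12.7 CPM with empty vector and at 25.3, 68.9 and 53.9 CPM with the fusion. All its fusion libraries were higher, and its WT level was 5.25 CPM. Its fitted log2 fold change was 1.91 (SE 0.36), and that of Gm43085, an unnamed locus just beyond its end, was 1.80 (SE 0.46) at a mean of 0.640 CPM with empty vector and 2.25 CPM with the fusion. Gm43085 lies on the same strand as Cxcl15.

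Between the chemokines and the EGF-family genes lies Mthfd2l, a mitochondrial folate enzyme gene, at 24.1 ± 7.39 CPM with empty vector and 24.7 ± 6.33 CPM with the fusion (SD, n = 3 each). Its fitted log2 fold change was 0.04 (SE 0.28). Gm19610, the antisense neighbour of Ereg, was at -0.47 (SE 0.32), close to the value of Ereg, with which it shares exon bases. Gm19619, a low noncoding locus between Areg and Btc, was singled out after its values were seen: it was higher in every fusion library, at 1.47 (SE 0.57) and at most 0.786 CPM. Of the 20 annotated genes of the stretch 14 were fitted, 11 with a value above 0, and the median log2 fold change of the 14 was 1.47. Areg (0.02), Mthfd2l (0.04) and Epgn (0.05) were among those above 0, all within their SE of it. The high values were those of the fitted chemokine members, Cxcl15, Gm43085 and Gm19619, between 1.47 and 2.79. In the 1 Mb before the stretch 7 genes were fitted with a median of 0.09, and in the 1 Mb after it 18 with a median of -0.11, while over all 16731 tested genes the median was 0.00911. As the stretch was chosen for its fold changes, the contrast with its flanks is a description.

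Most of the flanking genes at a mean of 1 CPM or more had values near 0. Before the stretch Adamts3 (0.09), Eif5al3-ps (0.16), Cox18 (-0.09) and Ankrd17 (0.01) were within their SE of 0, and Rassf6 was at -0.65 (SE 0.33), lower in each fusion library. After it Gm7832 (0.03), Rchy1 (0.13), Thap6 (0.01), Cdkl2 (-0.16), G3bp2 (0.05), Uso1 (-0.14) and Sdad1 (-0.07) were within their SE, and Naaa (-0.40, SE 0.30), Odaph (-0.77, SE 0.40) and the interferon-induced chemokine Cxcl10 (-0.68, SE 0.50) had values below 0 by more than their SE. Parm1, a mucin-like gene that is the first gene fitted after Btc, was the exception. It was at 0.969, 1.02 and 0.409 CPM with empty vector and at 28.3, 35.0 and 14.1 CPM with the fusion, all fusion libraries higher, with a fitted log2 fold change of 4.99 (SE 0.49). The low gene Afp, before the stretch and singled out after its values were seen, was at 3.91 (SE 0.76) with at most 1.08 CPM in any library. It had 3, 1 and 2 reads with empty vector. It thus passed the filter on low counts through the fusion libraries alone, and nothing is read from its value. Areg and Epgn, within their SE of 0, and Ereg and Btc, below 0, stood between Cxcl2 and Parm1.

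**Figure D3:**
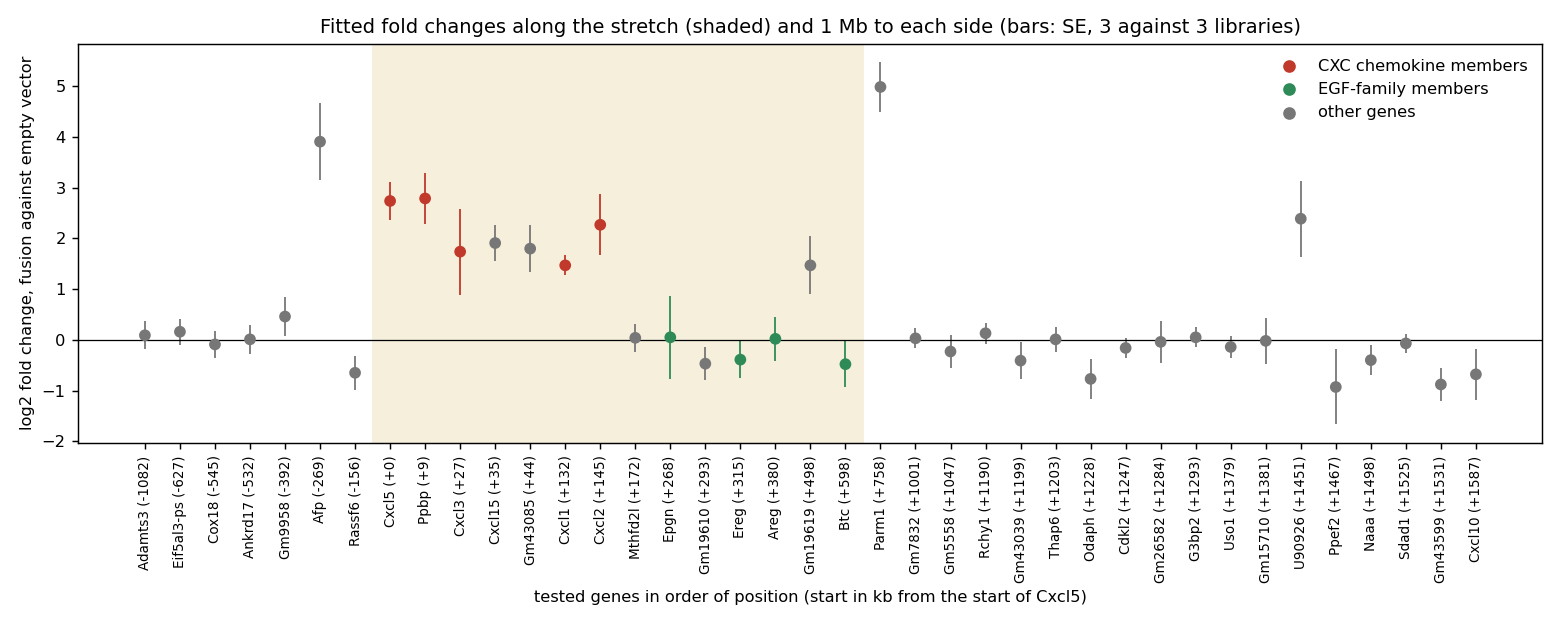
Fitted log2 fold change, fusion against empty vector (vertical axis, linear), of each fitted gene in order of position, with its start in kb from the start of Cxcl5; bars are SEs from 3 against 3 libraries, red points chemokine members, green points EGF-family members and grey points other genes, and the stretch is shaded. The 5 fitted chemokine members lie between 1.47 and 2.79 and the EGF-family members between -0.48 and 0.05.

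The genes around these ligands, their receptors, the proteases that release them and the regulators of their transcription and mRNA decay, were followed in 9 lists of 139 genes, of which 99 were tested. Between fusion and empty vector 2 of the 99 rose (2.02%) and 1 fell (1.01%) by the edgeR quasi-likelihood test, where 1.69% and 0.353% of all genes did, and the median log2 fold change was 0.02. With the replicate block, whose pairing no label names, 13 rose (13.1%) and 7 fell (7.07%), where 7.63% of all genes rose and 5.5% fell. Between empty vector and WT 0 of the 99 passed in either direction. As 0 of all 16731 tested genes did, nothing about the lists is read from this.

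No receptor for the CXCR2 ligands was found at an appreciable level. Cxcr1 and Ackr1 had 0 reads in all 7 libraries, and Cxcr2 had 2 reads at most in any library. Of 23 chemokine receptor genes 5 were tested, and 0 passed without or with the block. Ackr3, a scavenging receptor for CXCL12, was at 40.5 ± 14 and 46.5 ± 26.2 CPM (SD, n = 3 each).

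Among the 29 other chemokine ligands 15 were tested, and 1 rose. Cxcl12, the CXCR4 ligand of stromal cells, was at 411, 440 and 352 CPM with empty vector and at 784, 1390 and 1190 CPM with the fusion, with no overlap. It rose by a log2 fold change of 1.48 (SE 0.26, adjusted p = 0.0286 by the edgeR test, 0.00906 with the replicate block), and the WT library was at 638 CPM. That call did not hold in 5 of 6 fits without 1 library each (adjusted p up to 0.113). With the block Ccl9 rose too and Ccl5 fell. Ccl2, a monocyte chemokine, was at 209 ± 83.8 and 282 ± 82.7 CPM (SD, n = 3 each) and did not pass (adjusted p = 0.851 by edgeR).

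The receptors of the EGF family were present. Egfr was at 51.8, 87.8 and 57.8 CPM with empty vector and at 127, 159 and 73.7 CPM with the fusion, with 1 fusion library inside the empty vector range. It did not pass in the unpaired fit (log2 fold change 0.86, SE 0.33, adjusted p = 0.339 by edgeR) and rose with the replicate block (adjusted p = 0.0461). Erbb2 was at 34.2 ± 10.8 and 33.1 ± 6.00 CPM (SD, n = 3 each), and Erbb3 at 2.27 ± 0.437 and 1.42 ± 0.311 CPM, with adjusted p of 0.994 and 0.502 by edgeR. Erbb4, a receptor for Ereg and Btc, was at 0.144 CPM or less in every library and was not tested. Thus 0 of 3 tested receptors passed without the block and 1 rose with it.

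Of the 7 other EGF-family ligands 6 were tested, and 1 fell. Nrg2, a neuregulin that binds ERBB3 and ERBB4, was at 1.17, 1.06 and 0.650 CPM with empty vector and at 0.152, 0.0366 and 0.0748 CPM with the fusion, and at 0.180 CPM in WT. It fell by 3.39 on the log2 scale (SE 0.56, adjusted p = 0.0225 by edgeR, 0.00813 with the block), and the call was lost in 3 of 6 fits without a library (adjusted p up to 0.0864). With the block Tgfa, the EGFR ligand TGF-alpha, fell (6.40 ± 2.74 to 3.20 ± 1.14 CPM, SD, n = 3 each, adjusted p = 0.0249 with edgeR) and Nrg1 rose. Hbegf, the most abundant of these ligands, was at 63.6 ± 13.0 and 48.1 ± 8.74 CPM (SD, n = 3 each) and did not pass with or without the block.

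Of 11 sheddases and partners all were tested and 1 rose. Rhbdf2 encodes iRhom2, which carries ADAM17 to the cell surface. It was at 0.602, 0.645 and 1.93 CPM with empty vector and at 7.24, 10.9 and 5.42 CPM with the fusion, higher in every fusion library (log2 fold change 2.91, SE 0.53, adjusted p = 0.0324 by edgeR, 0.038 with the block). The call was lost in 4 of 6 fits without a library (adjusted p up to 0.131). Adam17 itself was at 142 ± 13.1 and 135 ± 14.7 CPM (SD, n = 3 each).

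Among inhibitors of ERBB signalling 0 of 10 tested passed in the unpaired fit, and with the block Lrig1, Spry2 and Spry4 fell and Cblb rose. Spry4, a feedback inhibitor induced by growth factor signalling, was at 32.0, 29.7 and 36.0 CPM with empty vector and at 9.98, 11.1 and 22.1 CPM with the fusion. Its groups did not overlap, and its adjusted p was 0.143 without and 0.0166 with the block (edgeR). These genes, like the others named here only for their blocked value, were singled out after their values were seen.

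Regulators of chemokine transcription and mRNA decay made up the next lists. Of 24 NF-kB and AP-1 regulators 0 passed without the block, and with it Rela and Nfkbie rose and Batf3 fell. Nfkbia, the inhibitor that NF-kB itself induces, was at 32.1 ± 5.38 and 33.7 ± 2.0 CPM (SD, n = 3 each). Of 14 factors of AU-rich mRNA decay and stability 0 passed without the block, and 4 rose with it: Zfp36l1 and Zfp36l2, which promote decay, Mapkapk2, which restrains the ZFP36 protein family, and Traf3ip2, the interleukin-17 receptor adaptor. Of the 11 tested genes among 16 inducing cytokines and receptors 0 passed without the block and Il1rn, the interleukin-1 receptor antagonist, rose with it (0.605 ± 0.318 to 3.74 ± 2.75 CPM, SD, n = 3 each, adjusted p = 0.0841 and 0.00329 with edgeR). Tnf and Il17a had 0 reads in all libraries, and Il1a and Il1b were at 0.144 CPM or less in each.

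**Figure D4:**
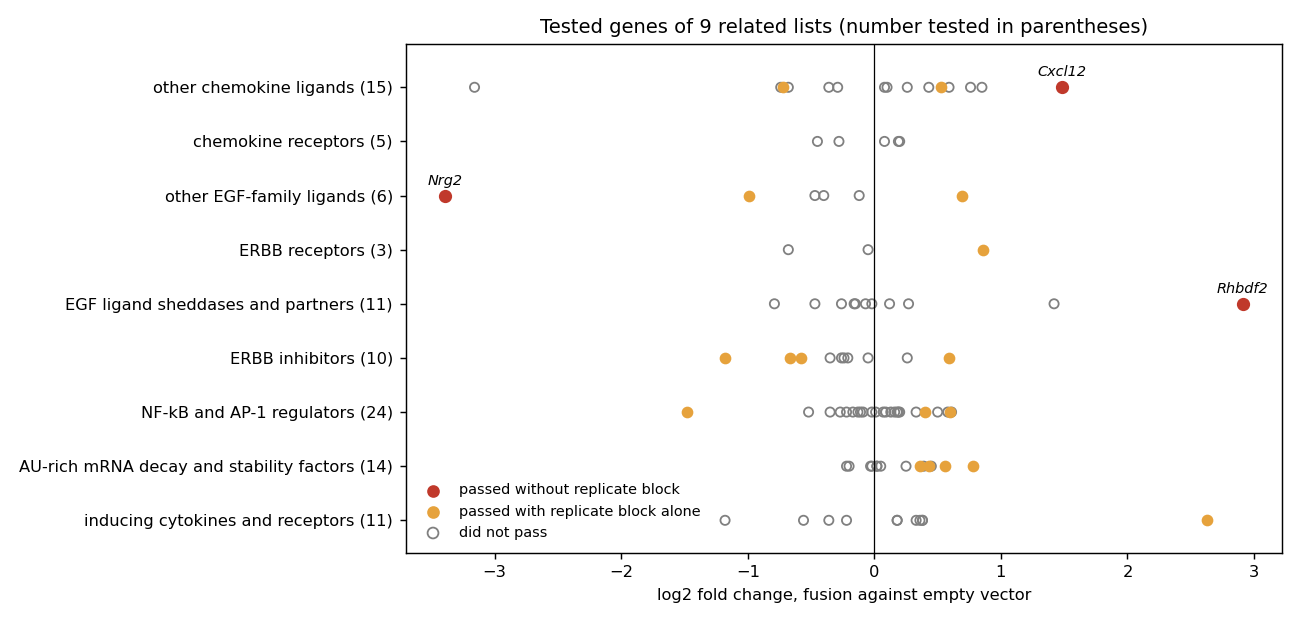
Fitted log2 fold change, fusion against empty vector (horizontal axis), of every tested gene of the 9 lists, 1 line per list with its number of tested genes in parentheses; red points passed at an adjusted p of 0.05 without the replicate block, orange points with the block alone and open points in neither fit. Cxcl12 and Rhbdf2 lie to the right and Nrg2 to the left, and chemokine receptors have no filled point.

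Markers of cell types, among them the labelled prostate epithelial type, stood beside these changes as follows. The myeloid and leukocyte list, 9 of whose 12 genes had reads, summed to 3.20 to 3.78 CPM with empty vector and to 4.06 to 4.74 CPM with the fusion. In WT it summed to 4.13 CPM, within the fusion range. Of its genes 0 of 4 tested passed, and Adgre1, S100a9 and Cd3e were at 0. Of 12 prostate epithelial markers 9 were tested and 2 rose, where 1.69% of all genes did. The list summed to 147 to 174 CPM with empty vector, to 128 to 166 CPM with the fusion and to 175 CPM in WT. Krt18 rose (log2 fold change 2.85, adjusted p = 0.0304 by edgeR), and Foxa1 rose from 0 reads in all 3 empty vector libraries to 2.13, 2.09 and 0.411 CPM (adjusted p = 0.0238 by edgeR). Foxa1 thus passed the filter on low counts through the fusion libraries alone, and nothing is read from its call. The Krt18 call did not hold in 4 of 6 fits without a library (adjusted p up to 0.138) and the Foxa1 call in 3 of 6 (up to 0.0765), and 0 markers passed without empty vector replicate 2, fusion replicate 1 or fusion replicate 2. With the block Cdh1 rose as well and Krt19 fell. Of 10 fibroblast markers 0 passed, and 4 fell with the block, where 5.5% of all genes fell. The sum of that list was 1.27e+04 to 1.84e+04 CPM with empty vector and 9.9e+03 to 1.53e+04 CPM with the fusion. The part of these markers in the chemokine levels was not tested.

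Among 13356 genes with a mean of at least 1 CPM over the 7 libraries, those whose log2(CPM + 0.5) profile was most like the mean profile of the 6 chemokines were Slc22a4 (Pearson r = 0.995), Sall3 (0.990), Zdhhc14 (0.990), Dapk1 (0.987) and Slc4a4 (0.985). For the mean of the 4 EGF-family genes they were Cdpf1 (0.986), Stoml2 (0.985), Rpl32 (0.974), Mtif2 (0.973) and Mus81 (0.973). Sall3 had 0 reads in WT and with empty vector, and Zdhhc14, Dapk1 and Slc4a4 had empty vector means of 0.0716, 0.165 and 0.0967 CPM, so these 4 reached the mean of 1 CPM through the fusion libraries alone, and their likeness to genes chosen on that contrast is no finding. The coefficients describe 7 libraries that fall into 3 groups, and the order depended on the pseudocount. With 0.1 in place of 0.5, 1 of the 5 named genes of each family stayed among its first 5: Slc22a4 stayed first and Stoml2 was at place 5, while Slc4a4 moved to place 31, Cdpf1 to 6 and Mtif2 to 40.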

How the data were processed

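Polyadenylated RNA of 7 TRAMP-C1 libraries (1 WT, 3 empty vector, 3 fusion) was sequenced as 50 bp single-end reads, per the labels. The authors deposited raw read counts for each gene, 1 table per lane, made with STAR and HTSeq on GRCm38, per the submitters' processing notes; no version, annotation release or strand setting was found in those notes. The 12 lane tables were summed per library. In the libraries with 2 lanes, the lanes agreed within sampling noise (chi-square divided by its degrees of freedom, 0.9785 to 1.01). Replicate 3 of the empty vector and of the fusion group had 1 lane each, so this could not be checked there. Multiply aligned reads (36.1 to 45.32%), reads outside genes (5.726 to 6.927%) and ambiguous ones (1.222 to 1.479%) stayed out of library sizes and tests, as did 92 spike-in controls with at most 2 counts. Symbols (46091 of 46603 genes) and positions come from GENCODE M21.

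Fusion was compared with empty vector in 6 libraries by edgeR 4.0.16 in R 4.3.3 (TMM, filterByExpr with a minimum count of 10, robust quasi-likelihood F test, Benjamini-Hochberg over 16731 genes at 0.05; biological coefficient of variation 0.301), and empty vector with WT over the same genes in all 7. The fit was tested on simulated data. DESeq2 1.42.0, its size factors, no filter, all 7 libraries, a replicate block and leaving out libraries were the alternatives. Same-numbered libraries deviated together from their group means (r = 0.535, 0.488 and 0.459 over genes; -0.0497 to -0.427 otherwise), so the numbers were taken to pair the samples; this check is the source of the pairing, as no label names a shared batch. Promoters are from RefSeq (GRCm38.p6).

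The members, lists, motifs and tests were chosen with earlier results of these data known. Named genes are the 10 members, Pax8 and Nfe2l2, 7 receptors, list genes past the threshold (at most 4 per list), neighbours of at least 1 CPM and Cxcl15, and the 5 genes most like each family; others are named as examples of their list after their values were seen. Some marker genes and the values that need them are not reported here.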

Additional observations from a re-analysis of the deposited data

How the results depend on the processing

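Over all genes, 282 were higher and 59 lower with the fusion. DESeq2 gave 622 and 300, the replicate block 1276 and 920, and no filter 133 lower. Leaving out 1 library at a time gave 123 to 309 higher and 10 to 75 lower. The fewest of both came without empty vector replicate 2, and leaving out fusion replicate 1 (182 and 14) or fusion replicate 2 (132 and 16) also cut them by over 1.5 times. For the 9 lists, 2 higher and 1 lower became 4 and 3 with DESeq2, 13 and 7 with the block, 3 lower with no filter, and 0 to 2 higher and 0 to 3 lower without 1 library. Between empty vector and WT, 0 in each direction became 37 higher and 34 lower with DESeq2, and 2 higher and 13 lower with no filter. The cause of these shifts was not tested.

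No fitted chemokine member changed sign under any alternative run. Areg ranged from -0.36 to 0.42 without 1 library: it turned to -0.0044 with all 7 libraries, to -0.02 with no filter, and to -0.26, -0.04 and -0.36 without empty vector replicate 1, empty vector replicate 2 or fusion replicate 3. Epgn, from -0.51 to 0.51, turned to -0.51 and -0.38 without empty vector replicate 1 or fusion replicate 3. Erbb2, at -0.05 and from -0.29 to 0.10 without 1 library, turned to 0.10, 0.08 and 0.09 without empty vector replicate 1, empty vector replicate 2 or fusion replicate 3. DESeq2 size factors changed no count by over 1.5 times. Fits that also left out replicate 3 of both groups for the members were chosen after seeing the data. Depth limits Cxcl2, Cxcl3, Epgn and Pf4 most, which had 112 counts or fewer in any library.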
